A study of Mus musculus with 5 samples.

Results

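The 33 genes described here encode enzymes of glycolysis, of the pentose phosphate pathway and of glycogen turnover, and were measured on 5 Affymetrix arrays of murine bone marrow plasma cells (PCs). They were chosen by name, with earlier results of these data known. The list held 18 enzymes of the glycolytic route, 2 bifunctional enzymes that regulate it, 7 enzymes of the pentose phosphate pathway and 6 of glycogen turnover. Each gene was represented by its brightest probe set that carries a single gene symbol in the platform annotation, and 54 such probe sets covered 29 of the 33 genes, out of 18193 genes on the array. Of these 29 genes, 28 were at or above an intensity of 50 on 2 or more arrays and were tested: 15 of glycolysis, both regulators, 6 of the pentose phosphate pathway and 5 of glycogen turnover. The glycogen phosphorylase gene Pygl stayed below that intensity in every array, at log2 values from 3.62 to 4.53, and was not tested. Gpi1, Eno1 and G6pdx had no such probe set and were not analysed here, and Gapdh was read only through 3 control probe sets of the array.

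All PCs came from the bone marrow of C57BL/6J mice, whose age is not given in the labels, that had been immunized repeatedly with an antigen in incomplete Freund's adjuvant, spelled NP-CCG in the labels and NP-CGG (a hapten on chicken gamma globulin) in the methods. PCs were isolated with magnetic beads, first by removing cells that carry B220 or CD49b and then by selecting for high CD138. Ex vivo PCs (2 arrays, 1 in each of experiments 1 and 2) were lysed after this isolation. Cultured PCs (3 arrays, 1 from experiment 1 and 2 from experiment 2) had in addition spent 3 days on a layer of ST2, a stromal line from mouse bone marrow, with the cytokine APRIL at a physiological oxygen level, and were then sorted by flow cytometry, a step that the ex vivo PCs did not pass through. Culture, ST2 contact, APRIL, the oxygen level and the sort therefore cannot be told apart. Whether the pair of cultured arrays of experiment 2 stands for separate cultures is not said in the sources used here. The spread on which the p-values rest includes that between these 2 arrays, which may in part be technical.

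Glycolysis splits glucose into pyruvate in a chain of cytosolic reactions and yields ATP and NADH. The pentose phosphate pathway branches off at phosphorylated glucose, makes NADPH and ribose phosphate in its oxidative part, and returns sugars to glycolysis through transketolase and transaldolase. Glycogen enzymes store glucose as a branched polymer and release it again, with phosphoglucomutase as the link to glycolysis. Several steps of glycolysis are served by isozymes, enzymes with the same reaction encoded by different genes, and many glycolytic genes are known targets of the hypoxia-inducible factor. PCs secrete large amounts of antibody and take up glucose both for energy and for the sugar chains of antibodies.

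Values are log2 of the deposited intensities, whose medians lay between 87.05 and 94.14 per array, and differences are cultured minus ex vivo on this log2 scale unless another direction is named. PC markers were high in every array. Sdc1, which encodes CD138, lay between 12.28 and 12.94 and Jchain, which encodes the joining chain of secreted antibody, between 13.42 and 13.79. None of the 8 PC markers passed the test for culture. In all 3 pairs within an experiment 5 of the 8 were lower and 1 was higher, beside 7579 and 7031 of all 30477 tested probe sets. For 2 of the 8, Tnfrsf17 (-0.32 with the experiment as a block) and Pou2af1 (-0.08), the groups did not overlap. Most stromal markers were higher in the cultured samples: 10 of 16 tested were called higher by limma once the experiment was a block. Over all tested probe sets 1.80% were called in either direction and 1.24% as higher. Of the 10, 4 (Cxcl12, Col3a1, Col6a1 and Cav1) were below an intensity of 50 in both ex vivo arrays and entered the test only through the cultured ones. Of the 6 not called, Thy1 and Dcn were lower in all 3 pairs within an experiment, by -0.55 and -0.07 with the block. For Thy1 the groups did not overlap. The summed intensity of the 19 measured stromal markers was 1383 and 941 in the ex vivo arrays, 6697 in the cultured array of experiment 1 and 16169 and 16574 in those of experiment 2. Cxcl12 rose from 5.49 and 5.55 ex vivo to 9.06, 9.58 and 10.14 in culture, Col1a2 from 6.32 and 5.74 to 10.39, 12.01 and 12.05, and Cav1 from 3.92 and 4.07 to 6.88, 7.05 and 7.14, whereas Lepr, Lum and Postn stayed below an intensity of 50 in every array. Of 7 tested macrophage markers 4 were called lower and 1 higher with the block. C1qa was lower, at 7.49 and 7.31 ex vivo and 5.27, 5.15 and 5.24 in culture, and Cd68 was higher, at 9.65 and 9.31 ex vivo and 10.53, 10.39 and 10.05 in culture. C1qa and C1qb were below an intensity of 50 in all cultured arrays. The summed intensity of the 8 macrophage markers was 1859 and 1528 ex vivo and 1791, 1747 and 1440 in culture, so these sums overlapped. Cd68, which rose, was the brightest of the 8 in every array. Of the 7 tested, 5 were lower in culture without overlap, beside 3220 of all 30477 tested probe sets. The part of these other cells in the enzyme values was not tested, and in bulk RNA fewer cells of a type and less RNA per cell cannot be told apart.

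With the experiment as a block, 7 enzyme genes rose in culture, all of them of the glycolytic route, and without the block none passed the test. They were Pfkl, Aldoa, Aldoc, Tpi1, Pgk1, Pgam1 and Pkm, with fitted increases between 2-fold for Aldoa and 6.15-fold for Aldoc. The pentose phosphate, glycogen and regulator genes gave no call. The block pairs cultured with ex vivo PCs of the same experiment, and the limma model that carries it called 7 of 28 genes. Across all 30477 tested probe sets, it called 1.80% in either direction and 1.24% as higher. Because the genes were listed with earlier results of these data known, the count of 7 describes the list. Without the block, 0 of the 28 genes passed, beside 0.0459% of all tested probe sets. Their adjusted p (limma, 2 ex vivo and 3 cultured arrays) was 0.0719 or higher, and an unadjusted p under 0.05 was reached by 9, all higher in culture. Over all 30477 tested probe sets, 1213 reached that unadjusted p as higher and 794 as lower. The count of 7 with the block fell to 0 without the ex vivo array of experiment 1, without that of experiment 2 and without the experiment 1 cultured array, each of which leaves a single experiment that holds both conditions. It stayed at 7 without the first cultured array of experiment 2 and was 4 without the second, when Pfkl, Aldoc, Tpi1 and Pkm still passed.

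**Figure D1:**
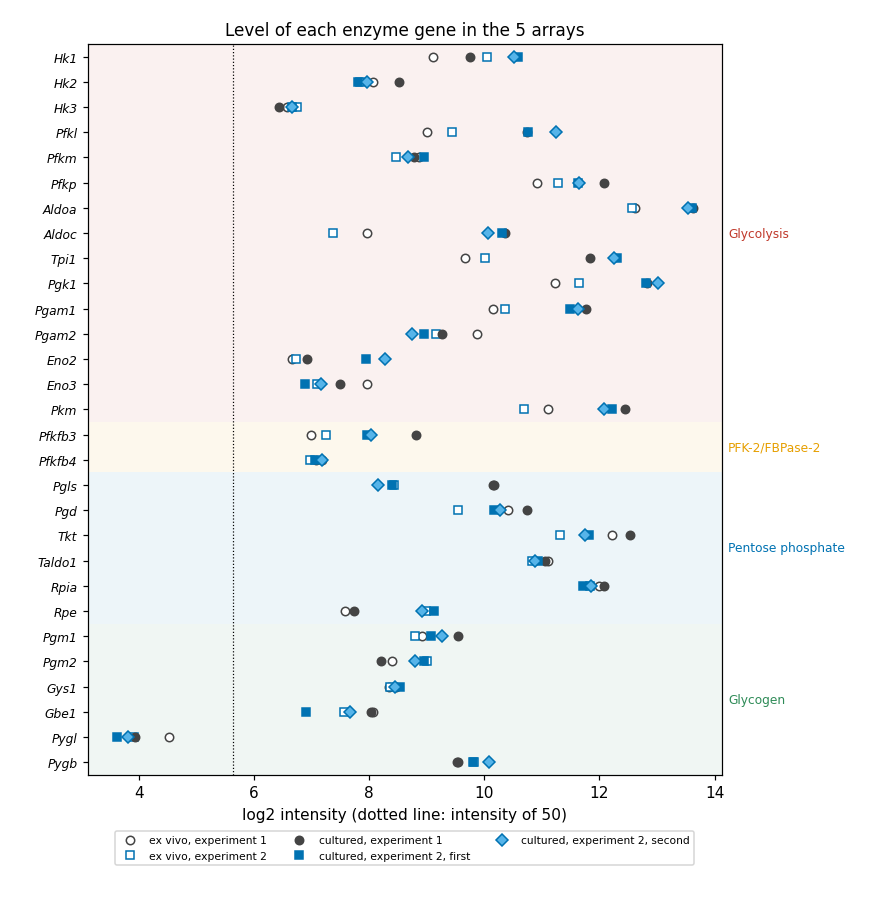
Log2 intensity of 29 enzyme genes (rows, grouped by route) in the 5 arrays, with open symbols for ex vivo and filled symbols for cultured PCs, and grey circles for experiment 1 and blue squares or diamonds for experiment 2. The filled symbols of Pfkl, Aldoa, Aldoc, Tpi1, Pgk1, Pgam1 and Pkm lie to the right of both open ones, whereas the symbols of Pgls and Rpe separate by experiment.

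Pfkl encodes the liver-type subunit of phosphofructokinase, which commits sugar to glycolysis. Its level was 9.01 and 9.44 ex vivo, and 10.74, 10.76 and 11.25 in the cultured PCs of experiment 1 and of the first and second array of experiment 2. The groups did not overlap, and with the block the increase was 1.64 (SE 0.17, 3.11-fold, limma adjusted p = 0.0201). All 3 probe sets of Pfkl passed, with increases from 1.21 to 1.81.

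Aldolase cleaves the bisphosphorylated sugar that phosphofructokinase makes, and both of its measured genes rose. Aldoa, the muscle-type and most widely expressed form, was at 12.62 and 12.56 ex vivo and at 13.62, 13.60 and 13.53 in culture. The arrays of a group lay close together while the groups were 1.00 apart (SE 0.11, adjusted p = 0.019 with the block). The adjusted p was 0.062 with the cultured arrays of experiment 2 averaged and 0.0888 without the second of them. Of 5 Aldoa probe sets 4 passed, with increases from 0.49 to 1.34 over the 5. All are of a type that may also bind similar sequences, so signal from related copies cannot be set aside. Aldoc, the form typical of brain, was at 7.97 and 7.38 ex vivo and at 10.36, 10.30 and 10.06 in culture. Its increase of 2.62 (SE 0.15, adjusted p = 0.00389 with the block) was the largest among the 28 genes tested, and its only other probe set was too dim to be tested.

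Tpi1 encodes triosephosphate isomerase, which interconverts the products of aldolase. It was at 9.66 and 10.02 ex vivo and at 11.83, 12.31 and 12.26 in culture, an increase of 2.22 (SE 0.11, 4.67-fold, adjusted p = 0.00274 with the block). Every cultured array lay above both ex vivo arrays, and the changes within experiments, 2.17, 2.29 and 2.24, differed little. The other probe sets of Tpi1 passed as well, and the 3 together gave increases from 2.22 to 2.41. Their levels were also higher in experiment 2 than in experiment 1, by 0.41 to 0.77, and all 3 passed the test for the experiment.

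The 3 called genes of the lower part of the chain changed by similar amounts. Pgk1, whose product phosphoglycerate kinase makes the first ATP of the route, was at 11.22 and 11.65 ex vivo and at 12.82, 12.80 and 13.02 in culture, an increase of 1.41 (SE 0.14, adjusted p = 0.0162 with the block), and all 3 of its probe sets passed. Pgam1, the phosphoglycerate mutase found in most tissues, was at 10.15 and 10.36 ex vivo and at 11.76, 11.49 and 11.62 in culture, an increase of 1.37 (SE 0.14, adjusted p = 0.0168). Pkm, which encodes the pyruvate kinase of most tissues outside liver and red cells, was at 11.10 and 10.69 ex vivo and at 12.44, 12.21 and 12.07 in culture, an increase of 1.40 (SE 0.11, adjusted p = 0.00861). None of these genes had overlapping groups. Pgam1 and Pkm were each read by 1 probe set, and the sources used here do not say which splice forms of Pkm its probe set detects.

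The median change of the 16 tested stromal markers was 2.32 in experiment 1, and 3.14 and 3.25 with the arrays of experiment 2. Of these markers, 4 entered the test only through the cultured arrays. The median change of the 7 called enzyme genes was 1.61 in experiment 1 and 1.32 and 1.38 in experiment 2. These 7 were picked by their call in these same data, and a link between both medians was not tested. Within experiment 2 the increases of Pgk1 and Pgam1 were smaller than in experiment 1, at 1.15 and 1.38 against 1.60 for Pgk1 and at 1.13 and 1.27 against 1.61 for Pgam1, while those of Aldoc were larger, at 2.92 and 2.67 against 2.39. For none of the 28 genes did the culture change itself differ between experiments by limma's interaction test (0 at an adjusted p under 0.05, beside 0% of all tested probe sets, with 1 residual degree of freedom). Unadjusted, 3 of the 28 genes had an interaction p under 0.05, beside 2008 of all 30477 tested probe sets. They were Pfkfb3 with a difference of -1.08 (experiment 2 minus experiment 1), Pfkp with -0.80 and Eno2 with 1.11. The limma adjusted p of the interaction was 0.654 for each.

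**Figure D2:**
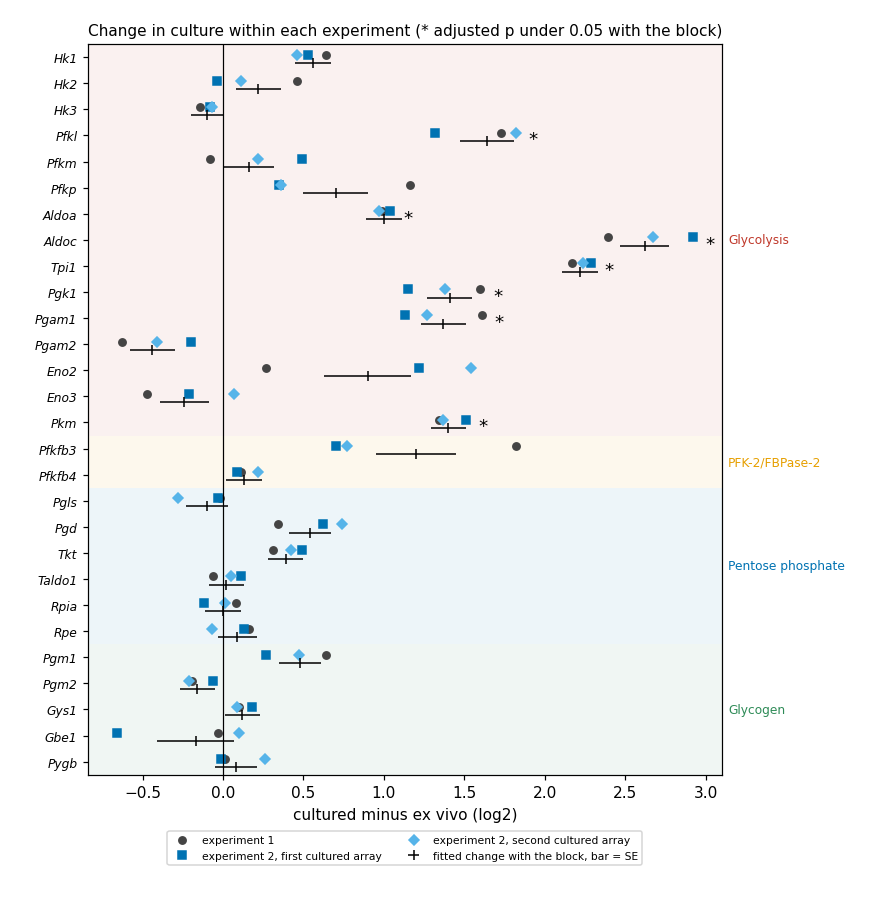
Cultured minus ex vivo on the log2 scale for the 28 tested genes (rows, grouped by route), within experiment 1 (grey circles) and with each cultured array of experiment 2 (blue squares and diamonds), and the change fitted with the experiment as a block (black bars, SE). The 7 genes with an asterisk have all 3 points at 0.97 or more, while the pentose phosphate genes stay between -0.28 and 0.74.

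The promoter windows of the called genes were searched for the short motifs bound by the hypoxia-inducible factor (ACGTG and GCGTG) and for the E-box (CACGTG), which itself holds ACGTG. Each was read on both strands over 250 bases before and 50 bases after the annotated start of RefSeq (GRCm38.p6), and all 28 tested genes had at least 1 window. ACGTG was found for 5 of the 7 called genes (Aldoa, Aldoc, Pgk1, Pgam1 and Pkm), and Pfkl and Tpi1 had none. It was also found for 8 of the 21 others (Hk1, Hk2, Hk3, Pfkm, Pfkfb3, Pgm1, Pgm2 and Pygb). Of all 27025 genes with a window, 21.8% had it. GCGTG was found for 3 of the 7 (Pfkl, Aldoc and Pgam1) and for 12 of the 21, beside 35.2% of all genes. CACGTG was found for 0 of the 7 and for 2 of the 21, Pfkfb3 and Pfkm, beside 8.09%. Genes with several starts have more windows and so more chances of a match, and a match of these letters is not a bound site. The windows of 3 called genes with a match, of Tpi1, which rose without one, and of Pgam2, the isozyme of Pgam1 that was not called, are printed 5′ to 3′ on the strand of the gene, with ACGTG or its reverse complement in capitals. The matches begin 150 and 131 bases before the start in Pgk1, 114 bases before it in Pgam1, and at base 28 after it in Aldoc, where it is the upstream of 2 windows. Coordinates are those of GRCm38.p6.
Pgk1, chrX:106186850-106187149, plus strand: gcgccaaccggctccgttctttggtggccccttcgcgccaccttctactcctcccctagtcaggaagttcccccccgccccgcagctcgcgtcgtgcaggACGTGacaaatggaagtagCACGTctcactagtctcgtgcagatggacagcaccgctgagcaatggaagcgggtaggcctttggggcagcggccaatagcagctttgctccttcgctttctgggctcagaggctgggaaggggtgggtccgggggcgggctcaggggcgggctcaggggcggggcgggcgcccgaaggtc
Pgam1, chr19:41911621-41911920, plus strand: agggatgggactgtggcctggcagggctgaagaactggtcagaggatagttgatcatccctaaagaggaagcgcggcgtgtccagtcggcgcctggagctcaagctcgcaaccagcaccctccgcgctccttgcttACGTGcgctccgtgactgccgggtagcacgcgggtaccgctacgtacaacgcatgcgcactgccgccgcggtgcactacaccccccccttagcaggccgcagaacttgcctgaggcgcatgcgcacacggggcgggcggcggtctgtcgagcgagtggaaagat
Aldoc, chr11:78322823-78323122, plus strand: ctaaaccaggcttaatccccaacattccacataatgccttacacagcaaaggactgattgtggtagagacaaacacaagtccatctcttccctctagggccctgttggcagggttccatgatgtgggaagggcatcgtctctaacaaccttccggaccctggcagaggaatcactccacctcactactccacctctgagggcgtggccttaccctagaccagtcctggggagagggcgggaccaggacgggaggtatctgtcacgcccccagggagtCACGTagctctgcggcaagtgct
Tpi1, chr6:124814109-124814408, minus strand: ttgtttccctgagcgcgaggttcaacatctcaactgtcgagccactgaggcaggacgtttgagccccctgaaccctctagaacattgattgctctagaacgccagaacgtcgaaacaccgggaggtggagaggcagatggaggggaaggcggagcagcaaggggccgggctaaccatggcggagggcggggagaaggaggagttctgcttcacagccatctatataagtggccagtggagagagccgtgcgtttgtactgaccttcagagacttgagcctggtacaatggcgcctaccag
Pgam2, chr11:5803747-5804046, minus strand: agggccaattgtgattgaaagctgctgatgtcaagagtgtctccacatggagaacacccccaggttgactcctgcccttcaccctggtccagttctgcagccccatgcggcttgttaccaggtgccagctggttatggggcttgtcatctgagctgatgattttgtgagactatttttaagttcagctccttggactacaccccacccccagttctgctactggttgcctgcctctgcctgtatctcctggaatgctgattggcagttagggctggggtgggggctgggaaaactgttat

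The other 8 tested genes of the glycolytic route did not pass, with or without the block. The hexokinases, which trap glucose in the cell, gave no call: Hk1 changed by 0.56 (95% confidence interval 0.29 to 0.83, adjusted p = 0.0782 with the block), Hk2 by 0.22 (-0.14 to 0.57) and Hk3 by -0.10 (-0.36 to 0.16). Hk1 was higher in culture in each of the 3 pairs within an experiment, by 0.64, 0.53 and 0.46, but its 2 ex vivo arrays lay at 9.11 and 10.05 and the groups overlapped. Enolase was read through Eno2, the neuronal form, and Eno3, the muscle form. Eno2 was at 6.66 and 6.73 ex vivo and at 6.92, 7.95 and 8.27 in culture. Its difference was 1.22 and 1.54 in experiment 2 and 0.27 in experiment 1. The fitted change was 0.90 (95% confidence interval 0.23 to 1.57, adjusted p = 0.171). Eno3 differed by -0.24 (-0.62 to 0.14). The 3 control probe sets of Gapdh, whose enzyme feeds Pgk1 its substrate, gave changes of 0.57, 0.65 and 0.74 with the block when controls were kept in the fit, and 1 of the 3 passed (adjusted p = 0.0708, 0.0543 and 0.0421).

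The culture changes of isozymes were compared directly, as the difference in log2 between 2 genes of a family in each array. This gave 11 pairs. With 2 ex vivo and 3 cultured arrays, 0.1 is the smallest p that the two-sided exact permutation test allows. The test compares group means and so leaves out the block. Of the 11 pairs 6 did not overlap between the groups, and 10 had the same sign in all 3 comparisons within an experiment, where the order of each pair was set by its mean. Pairs of a family share genes and no share over other gene pairs was computed, so these counts only describe the 11 pairs. The smallest exact p was 0.1, or 0.275 after adjustment over the 11 pairs. None therefore passed.

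The largest of the 11 differences was that of phosphoglycerate mutase. Pgam2, the muscle-type gene, was at 9.88 and 9.16 ex vivo and at 9.26, 8.96 and 8.75 in culture, a change of -0.44 with the block (95% confidence interval -0.78 to -0.10, adjusted p = 0.183). The change of Pgam1 had the opposite sign, and the difference between both changes was 1.90 without the block and 1.81 with it, with 2.23 in experiment 1 and 1.33 and 1.67 in experiment 2 (exact permutation test, two-sided, p = 0.1, adjusted p = 0.275). In phosphofructokinase, Pfkm, the muscle-type subunit, was at 8.87 and 8.47 ex vivo and at 8.78, 8.95 and 8.68 in culture, a change of 0.16 (95% confidence interval -0.22 to 0.55). Pfkp, the platelet-type subunit, was at 10.91 and 11.28 ex vivo and at 12.07, 11.63 and 11.64 in culture, a change of 0.70 (0.21 to 1.19, adjusted p = 0.152). Its cultured arrays lay above both ex vivo arrays, but its change was 1.16 in experiment 1 and 0.35 and 0.36 in experiment 2. The change of Pfkl exceeded that of Pfkm by 1.55 without the block and 1.47 with it (exact permutation test, two-sided, p = 0.1, adjusted p = 0.275) and that of Pfkp by 1.01 and 0.94 (exact p = 0.2, adjusted p = 0.367). The increase of Aldoc exceeded that of Aldoa in each comparison, by 1.40, 1.88 and 1.71, and the difference of 1.57 without the block (1.62 with it) had the same exact p = 0.1.

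**Figure D3:**
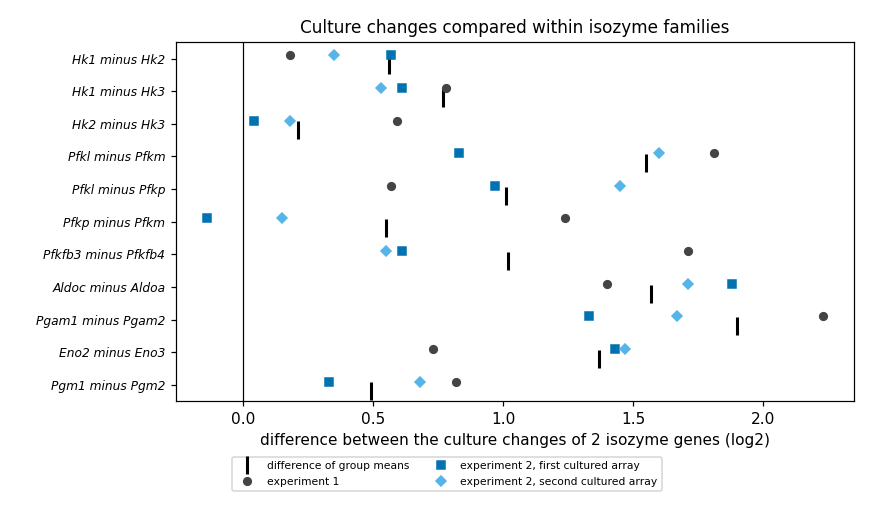
Difference between the culture changes of 2 genes of an isozyme family (log2, 11 pairs, the gene with the larger mean change first), within experiment 1 (grey circles), with each cultured array of experiment 2 (blue squares and diamonds), and between the group means (black bars). Pgam1 minus Pgam2 and Aldoc minus Aldoa lie at 1.33 or more throughout, whereas Pfkp minus Pfkm reaches -0.14.

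The regulators Pfkfb3 and Pfkfb4 encode bifunctional enzymes that make and remove an activator of phosphofructokinase, with Pfkfb3 mainly making it. Pfkfb3 was at 6.99 and 7.26 ex vivo and at 8.81, 7.96 and 8.03 in culture. The groups did not overlap, but the change was 1.82 in experiment 1 and 0.70 and 0.77 in experiment 2, and the fitted 1.20 did not pass (SE 0.25, limma adjusted p = 0.0881 with the block). The other, dimmer probe set of Pfkfb3 gave 0.72 in experiment 1 and 0.58 and 0.53 in experiment 2, an interaction of -0.17. Its fitted 0.63 did not pass either (SE 0.11, limma adjusted p = 0.0616 with the block). Pfkfb4 changed by 0.13 (95% confidence interval -0.14 to 0.41). The difference between both changes was 1.02 without the block and 1.07 with it (exact permutation test, two-sided, p = 0.1, adjusted p = 0.275).

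Of the 6 tested pentose phosphate genes 4 passed for the difference between the experiments and 0 for culture with the block. Their median change was 0.05, beside 0.90 for the 15 glycolysis genes, 0.08 for the 5 glycogen genes and -0.02 for all tested probe sets. By their brightest probe sets, Pgd and Tkt were higher in culture in each of the 3 pairs within an experiment. The dimmest of the 3 tested Tkt probe sets was lower in each, with changes of -0.06, -0.14 and -0.14. Pgd encodes the dehydrogenase that makes the second NADPH of the oxidative part, and its level was 10.41 and 9.54 ex vivo and 10.75, 10.16 and 10.28 in culture, a change of 0.54 (95% confidence interval 0.22 to 0.86, adjusted p = 0.116). Tkt encodes transketolase, and its level was 12.22 and 11.32 ex vivo and 12.53, 11.81 and 11.74 in culture, a change of 0.39 (0.12 to 0.66, adjusted p = 0.152). In both genes the groups overlapped, and their brightest probe sets are of the type that may bind similar sequences. The 95% confidence intervals of the other 4 all held 0: Taldo1, which encodes transaldolase, had -0.25 to 0.29, Rpia and Rpe, which interconvert pentose phosphates, had -0.28 to 0.28 and -0.21 to 0.39, and Pgls, which opens the lactone made by the entry enzyme, had -0.41 to 0.22.

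With culture in the model, 9 of the 28 genes differed between experiment 2 and experiment 1, beside 26.8% of all tested probe sets, and 4 of these 9 were pentose phosphate genes. Pgls was at 10.17 and 10.15 in the ex vivo and cultured PCs of experiment 1 and at 8.43, 8.40 and 8.15 in those of experiment 2, a difference of -1.82 (experiment 2 minus experiment 1, SE 0.13, limma adjusted p = 0.00263). Rpe went the other way, at 7.58 and 7.74 in experiment 1 and at 8.99, 9.12 and 8.91 in experiment 2 (1.33, SE 0.12, adjusted p = 0.00338). Tkt and Pgd were lower in experiment 2, with differences of -0.82 and -0.67. The remaining 5 were Hk1 (0.86), Tpi1 (0.41) and Pgm2 (0.65), higher in experiment 2, and Pgam2 (-0.54) and Eno3 (-0.65), lower. None of the 28 passed for the experiment when either ex vivo array or the experiment 1 cultured array was left out, and 7 passed without either cultured array of experiment 2. The genes given here with values in every array outside the called isozyme families were picked after their values had been seen.

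**Figure D4:**
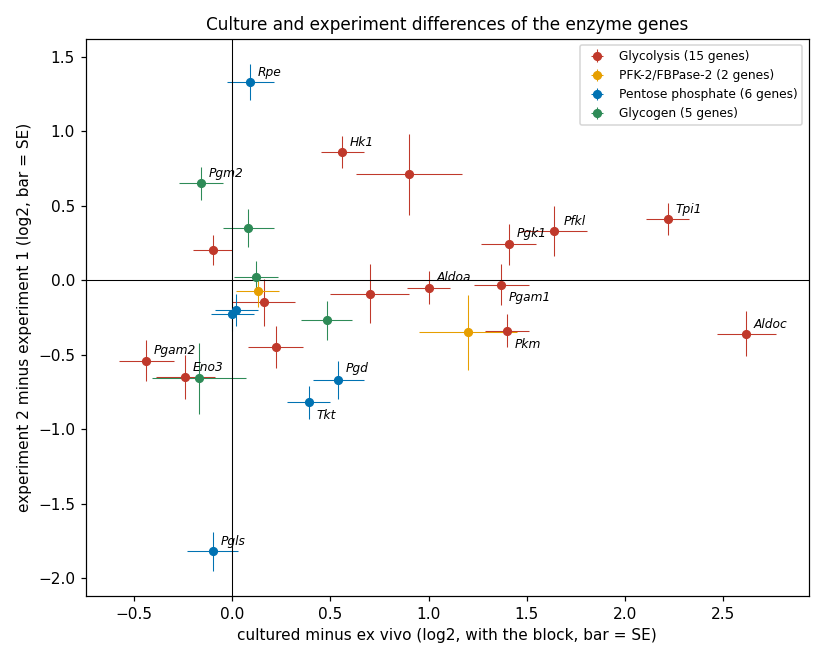
Fitted culture change (horizontal axis, log2, SE) against the difference between experiments (vertical axis, log2, SE) for the 28 tested genes, coloured by route, with the 7 genes called for culture and the 9 called for the experiment named. The culture calls lie between 1.00 and 2.62 on the horizontal axis and are all glycolytic, and Pgls (-1.82) and Rpe (1.33), near 0 on that axis, lie farthest out on the vertical one.

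Several experiment differences depended on the probe set read, which was less so for culture in Hk1, Pfkp and Rpe. The 2 probe sets of Hk1 gave culture changes of 0.56 and 0.54 but experiment differences of 0.86 and -0.51, each of which passed. Those of Pfkp gave culture changes from 0.70 to 0.86 and experiment differences from -0.44 to 1.75. Among the 3 probe sets of Rpe the experiment difference ran from 0.06 to 1.33, and only the brightest passed. Over the 13 genes with at least 2 tested probe sets, the median range among the probe sets of a gene was 0.21 for culture and 0.34 for the experiment, and the range for the experiment was the larger in 7 of 13. Controls at either end of the Gapdh transcript also moved with the experiment: the 3′ set exceeded the 5′ set by 0.74 and 0.63 in experiment 1 and by 0.34, 0.30 and 0.28 in experiment 2. The part of this in the experiment differences was not tested.

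Glycogen genes showed no call for culture. The phosphoglucomutases are named here by the gene identifiers 72157 for Pgm1 and 66681 for Pgm2, since older annotation uses the symbols the other way round. Pgm1 was at 8.92 and 8.80 ex vivo and at 9.55, 9.07 and 9.26 in culture. These groups did not overlap, and the change was 0.48 (95% confidence interval 0.16 to 0.81, limma adjusted p = 0.14 with the block). Gys1, the glycogen synthase of most tissues, changed by 0.12 (-0.14 to 0.39), the branching enzyme gene Gbe1 by -0.17 (-0.77 to 0.42) and the brain-type phosphorylase gene Pygb by 0.08 (-0.24 to 0.40). Gys1 ranged from 8.35 to 8.54 over the 5 arrays. For Pgm2 the change was -0.16 (-0.43 to 0.12).

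Counted without a test, 16 of the 28 genes were higher in culture in all 3 pairs within an experiment, 10 of them glycolytic, beside 23.1% of all tested probe sets. In 12 of the 28 every cultured array lay above both ex vivo arrays, beside 9.42% of all tested probe sets. Of these, 9 were glycolytic enzymes, 1 was a regulator and 2 were glycogen genes. In 0 of the 28 did every cultured array lie below, beside 3220 of all 30477 tested probe sets. The genes were listed with earlier results of these data known, so these counts describe the list.

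Among other genes of the same pathways 1 was called. Of 50 further genes of glycolysis, gluconeogenesis, the pentose phosphate pathway and glycogen turnover, 32 were tested, and their median change with the block was -0.10. The called gene was Ppp1r3c, which encodes a subunit that targets protein phosphatase to glycogen, at 4.62 and 4.75 ex vivo and at 5.94, 6.64 and 6.61 in culture. Its ex vivo values lie under 5.64, the log2 of the intensity of 50 used as a floor, so it entered the test only through its cultured arrays and no size of its change is given. A further list held 8 genes of glucose and lactate transport, lactate dehydrogenase and pyruvate dehydrogenase kinase, and 3 of them passed. Slc2a1, a glucose transporter gene, rose by 1.20 with the block. Ldha, which encodes the lactate dehydrogenase subunit that favours lactate, rose by 1.62, and Slc16a3, which encodes a lactate exporter, by 1.46. The other 5 were not called: Ldhb (0.54), Pdk1 (0.53), Pdk3 (0.10), Slc16a1 (0.04) and Slc2a3 (-0.09). Over all tested probe sets the block called 1.80% in either direction and 1.24% as higher.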

How the data were processed

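Groups and experiments were taken from the labels. Raw signals had been processed by the authors with RMA in the affy package, and GCOS is named in the submitters' notes, with versions not given in the sources used here. What they deposited are linear intensities, converted here to log2. All 5 columns were used. Of 45101 probe sets, 64 controls were left out, and 30477 that were at 50 or more on 2 or more arrays were tested by limma 3.58.1 (R 4.3.3, lmFit, eBayes), with p-values adjusted by Benjamini-Hochberg over all of them and a threshold of 0.05. The methods name limma and this threshold but no model terms, and the main model here held culture alone. Further fits added the experiment as a block, gave the experiment difference, or added the interaction. Samples were paired by experiment, because both groups carry the same experiment numbers in the labels and replicates were, by the methods, independent experiments of different days. Deviations from the group means correlated at 0.75 in experiment 1 and at 0.56 and 0.72 in experiment 2, and with 2 ex vivo arrays their deviations are opposite by construction. The number of arrays limits the precision. Confidence intervals of 95% rest on limma's moderated standard errors.

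Symbols come from the platform annotation, where 34945 probe sets carry 1 symbol, 932 several and 9160 none, and were updated through gene identifiers of RefSeq (GRCm38.p6). The array values carry no genome build. All 33 genes are named. Values in every array are given for called genes and their isozymes, and for others chosen after their values were seen. Among pathway, transport, lactate dehydrogenase and pyruvate dehydrogenase kinase genes those called with the block are named, up to 5. The uncalled ones outside the pathway list are named as well. The enzyme genes, the other gene lists and the markers were chosen with earlier results of these data known. With the block, 0 of 4 neutrophil, 0 of 3 erythroid, 1 of 5 B cell, 0 of 3 T and NK cell and 1 of 4 proliferation markers were called, the last 2 calls being lower in culture. Isozyme pairs were tested by exact permutation with scipy 1.17.1, and figures drawn with matplotlib 3.10.9. The fits were tested on simulated data. As alternatives, the experiment was used as a block, the cultured arrays of experiment 2 were averaged, the filter, normalization, moderation, threshold and choice of probe set were changed, control probe sets were kept, and each array was left out.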

Additional observations from a re-analysis of the deposited data

How the results depend on the processing

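With the experiment as a replicate block, the probe sets called for culture went from 14 to 550 and the enzyme genes from 0 to 7. Without the block, 2 probe sets passed at an adjusted p under 0.01, 0 with the cultured arrays of experiment 2 averaged, 5 with no filter, 31 with a floor of 100, 22 with an intensity trend and 25 genes with the probe sets of a gene averaged. Of the enzyme genes, 1 passed with a floor of 100 (Aldoc), 3 with averaged probe sets (Pfkl, Aldoc and Pgk1), and 0 in the other settings that keep all arrays without the block. Leaving out single arrays gave 0 to 257 probe sets and 0 to 1 enzyme genes, the highest without the cultured array of experiment 1 (Tpi1).

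With the block, 99 probe sets and 3 enzyme genes passed at an adjusted p under 0.01, 187 probe sets with the cultured arrays of experiment 2 averaged and 206 with no filter. Averaging kept 6 of the 7 enzyme genes (all but Aldoa), and so did no filter (all but Pfkl). With averaged probe sets 10 passed, adding Hk1, Pfkfb3 and Pgm1 to the 7. The 7 passed under the floor, quantile, centring, trend and robust settings, and their increases stayed positive in every alternative. Leaving out single arrays gave 0 to 271 probe sets and 0 to 7 enzyme genes with the block, and 0 to 7 genes for the experiment, 0 wherever a single experiment held both conditions. No called gene changed sign. The difference between Hk1 and Hk2 ran from -0.01 to 1.13 and that between Hk2 and Hk3 from -0.07 to 0.40 when arrays were left out. Where not given by the setting itself, the cause was not tested.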
